A study of Mus musculus with 24 samples.

Results

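The 10 genes described here make or carry acetylcholine or form its nicotinic receptors, and were taken from 30270 genes by their symbols: *Chat*, *Slc5a7*, *Chrna3*, *Chrna4*, *Chrna5*, *Chrna6*, *Chrna7*, *Chrnb2*, *Chrnb3* and *Chrnb4*. Each had 1 row in all 8 deposited tables. RNA was sequenced from bilateral punches of the nucleus accumbens (NAc), which held both core and shell, and of the ventral tegmental area (VTA) of C57BL/6 mice. Wild-type (WT) and *Vdr*-/- mice, which lack the vitamin D receptor, received intraperitoneal PBS or morphine at 5 mg/kg. Each region had 4 groups of 3 mice, 24 libraries in all, and each number in the labels, read here as a mouse, occurred in both regions. Brains were taken 90 min after injection in the description of the sequencing, while the tissue methods put saline-injected mice at 60 min. Age and sex are not given in the sources used here, and the *Vdr*-/- mice were raised on a calcium-rich diet that wild-type mice are not said to have received. PBS and morphine libraries carry names of different formats and 5 of their 12 index sequences in common, so that injection and any set of library preparations cannot be told apart. The labels do not say that the NAc and VTA libraries of a number come from 1 mouse, and name no cage or litter. The p-values measure the spread between these numbered samples.

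Acetylcholine is made by choline acetyltransferase (*Chat*) from choline that the high-affinity transporter *Slc5a7* returns to the nerve ending. In the NAc it comes largely from sparse, tonically active interneurons, and in the VTA from fibres of brainstem cholinergic nuclei, whose cell bodies lie outside the region. Nicotinic receptors are pentamers of alpha and beta subunits that open a cation channel. Midbrain dopamine neurons are known for receptors that combine alpha4 and beta2 with alpha5, or alpha6 with beta2 and beta3, whereas alpha7 forms receptors alone and alpha3 with beta4 is the ganglionic type, abundant in the medial habenula.

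*Chrna5*, *Chrna3* and *Chrnb4* lie side by side on chromosome 9 (GENCODE M21, GRCm38), with *Chrna5* on the plus strand at chr9:54980880-55007779, *Chrna3* on the minus strand at chr9:55010111-55026562 and *Chrnb4* on the minus strand at chr9:55028154-55048779. *Chrnb3* on the plus strand at chr8:27368711-27399730 and *Chrna6* on the minus strand at chr8:27403212-27413944 also neighbour each other. *Chat* lies on the minus strand at chr14:32408203-32465989, and the gene of the vesicular acetylcholine transporter, *Slc18a3*, lies inside it with 0 shared exon bases. The remaining members lie apart, *Slc5a7* at chr17:54273590-54299034, *Chrna4* at chr2:181018380-181043546, *Chrna7* at chr7:63098692-63212569 and *Chrnb2* at chr3:89746195-89764632, all on the minus strand. *Chrnb2* shares 1365 exon bases with *Adar* on the opposite strand. The kit was directional, and genes inside opposite-strand exons held reads in 51 of 125 cases, which counting without strand would have discarded.

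RefSeq promoter windows (GRCm38.p6) matched 8 of the 10 members, not *Chrna6* or *Chrnb3*. The stretch before the outermost GENCODE start is shown 5′ to 3′ on the gene's own strand for *Chat*, which was higher in the NAc, and for the adjacent *Chrna5* and *Chrna3*, both higher in the VTA and read from opposite strands. Capitals mark the only matches, on either strand, to 5 sequences that were searched: TAATTA (a LIM-homeobox core), AGGTCA (a nuclear receptor half-site), TGACGTCA (the cAMP response element), GGGCGG (a GC box) and CACGTG (an E-box).
*Chat*, chr14:32465990-32466159, minus strand: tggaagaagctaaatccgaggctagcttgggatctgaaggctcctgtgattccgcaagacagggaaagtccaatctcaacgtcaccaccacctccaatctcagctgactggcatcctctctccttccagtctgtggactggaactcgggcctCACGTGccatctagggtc
*Chrna5*, chr9:54980630-54980879, plus strand: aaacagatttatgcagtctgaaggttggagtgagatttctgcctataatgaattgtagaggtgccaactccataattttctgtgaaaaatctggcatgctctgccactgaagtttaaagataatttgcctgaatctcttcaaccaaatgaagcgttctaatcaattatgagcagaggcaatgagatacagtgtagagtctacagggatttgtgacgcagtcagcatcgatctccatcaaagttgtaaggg
*Chrna3*, chr9:55026563-55026812, minus strand: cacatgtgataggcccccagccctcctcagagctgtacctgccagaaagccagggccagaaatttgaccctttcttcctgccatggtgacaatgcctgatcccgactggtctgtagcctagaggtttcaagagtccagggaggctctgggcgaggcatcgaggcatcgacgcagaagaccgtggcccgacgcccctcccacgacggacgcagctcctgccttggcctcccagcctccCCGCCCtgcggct
The *Chat* window of 170 bases held 1 E-box, present in 3.38% of the 32851 RefSeq windows cut to the same stretch. The *Chrna3* window of 250 bases held 1 GC box, present in 32.7% of windows, and the *Chrna5* window held none of the 5 sequences. The other 3 sequences, found in none of these windows, occur in 4.84% (TAATTA), 14% (AGGTCA) and 1.55% (TGACGTCA) of windows of 250 bases. GC content was 63.2% for *Chrna3*, 54.7% for *Chat* and 40% for *Chrna5*, against a median of 52.4% over all windows.

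Depth was 9328726 to 24509922 gene-assigned reads in the NAc libraries and 12421680 to 30184426 in the VTA libraries. *Vdr* itself held 0 to 17 reads per library and was not lower in *Vdr*-/- mice, with medians of 2.5 reads (WT) and 6.0 (*Vdr*-/-) in the NAc and 8.0 and 7.5 in the VTA, so genotype rests on the labels. The NAc library of WT PBS mouse 2 stood apart by a stronger bias against long genes. Its rho between gene length and level relative to the other libraries was -0.439, against -0.121 to 0.203 in the other 11. Among those, rho was -0.121 to 0.0460 with PBS and 0.00427 to 0.203 with morphine. In the VTA it was -0.224 to -0.0401 in the PBS libraries and 0.0552 to 0.176 in the morphine libraries. This length trend thus ran along injection, and its part in the morphine differences was not tested. Summed medium spiny neuron markers reached 2487 to 5044 CPM (reads scaled to the total gene-assigned reads of the library) in the NAc and 262 to 325 CPM in the VTA. The 10 dopamine neuron markers (*Th*, *Slc6a3*, *Slc18a2*, *Ddc*, *Pitx3*, *Nr4a2*, *En1*, *Foxa1*, *Aldh1a1* and *Ret*) summed to 62.5 to 106 CPM in the NAc, and in the VTA from 279 CPM to 3456 CPM. Markers of brainstem cholinergic motor neurons were at most 9.30 CPM in any VTA library and those of the habenula at most 19.7 CPM.

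To place the genes relative to each other, CPM were divided by exon length in kilobases (RPKM). In the NAc, the receptor genes with the highest levels were *Chrna4* (9.29 ± 1.92 RPKM, SD, n = 12) and *Chrnb2* (9.05 ± 0.655), followed by *Slc5a7* (5.99 ± 1.54), *Chat* (3.77 ± 0.877) and *Chrna7* (3.25 ± 0.528). Neighbours in this order overlapped between libraries. The lowest *Chrna7* library (1.74 RPKM) lay above the highest library of the next gene, *Chrna5* (0.559 RPKM). The remaining 5 subunits averaged 0.300 RPKM (*Chrna5*) down to 0.0651 RPKM (*Chrna6*) and overlapped with their neighbours.

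In the VTA the order was *Chrna4* (33.9 ± 12.7 RPKM), *Chrna6* (20.04 ± 15.4), *Chrnb2* (13.3 ± 0.711), *Chrnb3* (5.94 ± 4.73) and *Chrna7* (5.14 ± 0.503). *Chrna3* (1.44 ± 0.437) and *Chrna5* (1.38 ± 1.11) followed, then *Chrnb4*, *Slc5a7* and *Chat* at 0.500, 0.466 and 0.225 RPKM. Apart from the step from *Chrna7* to *Chrna3*, every neighbouring pair in this order overlapped. *Chrnb2*, the beta subunit shared by most brain receptors, varied least of the 10 relative to its mean, from 12.3 to 14.8 RPKM, while *Chrna6* ran from 1.77 to 45.9 RPKM.

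**Figure D1:**
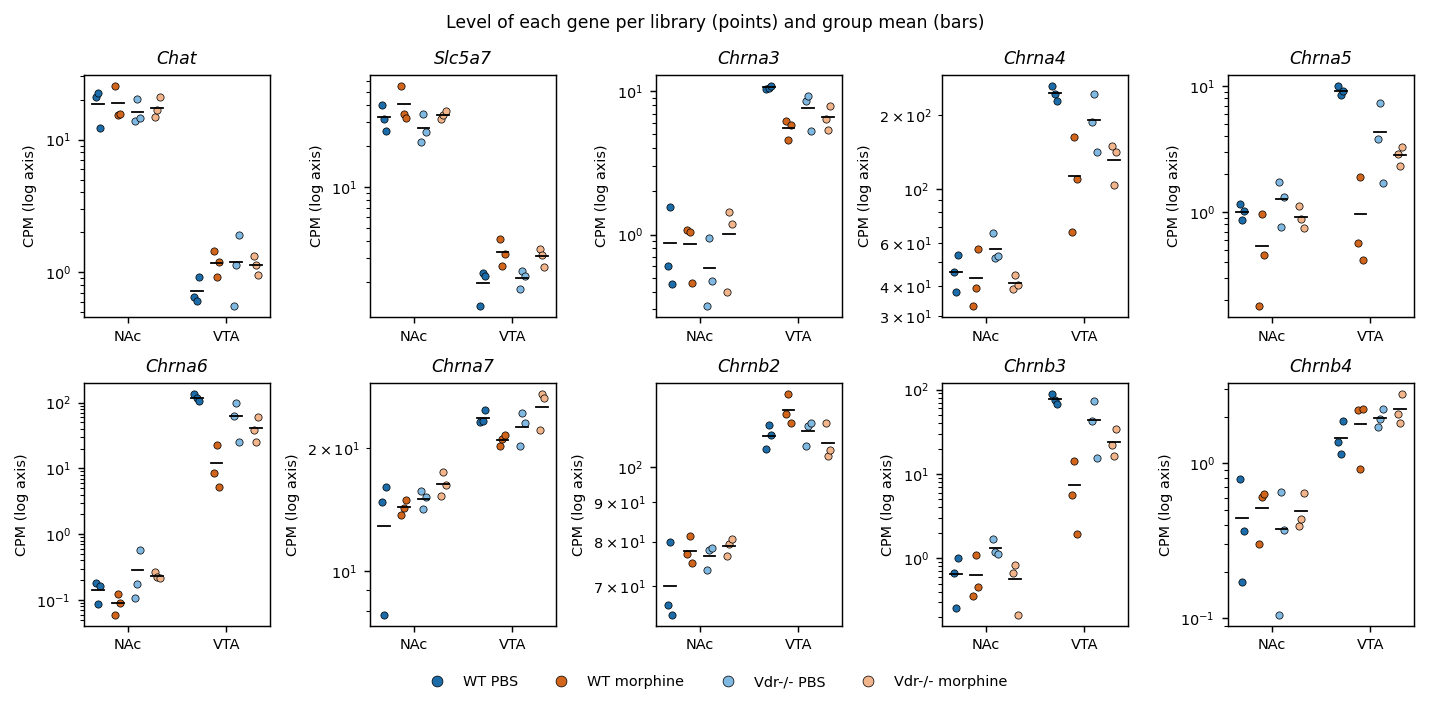
Level of each gene in CPM (log axis) in the 12 NAc and 12 VTA libraries, by genotype and injection. Points are libraries and bars the mean of 3. *Chat* and *Slc5a7* sit higher in the NAc, the 8 receptor genes sit higher in the VTA on average, and *Chrna5*, *Chrna6* and *Chrnb3* spread widest within the VTA.

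Which region carries each gene was tested first. Both genes of acetylcholine synthesis were higher in the NAc and the receptor genes were higher in the VTA. *Chat* reached 12.3 to 25.6 CPM in the 12 NAc libraries and 0.556 to 1.92 CPM in the VTA, and *Slc5a7* reached 21.6 to 56.0 CPM and 1.34 to 4.13 CPM. The regions did not overlap for either gene. The share of all genes without overlap between regions was not counted, so a lack of overlap is given as a description.

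*Slc5a7* stood in the NAc at 1.42 to 2.27 times the CPM of *Chat*. In the VTA, where *Chat* held only 10 to 58 reads per library, the range was wider, at 1.16 to 3.91 times. In WT PBS mice the difference NAc minus VTA was 4.61 ± 0.32 (log2 ± SE) for *Chat* and 4.09 ± 0.23 for *Slc5a7* (limma with Benjamini-Hochberg adjustment over 16147 genes, adjusted p = 1.95e-10 and 1.2e-11). In the other groups it lay between 3.91 and 3.94 for *Chat* and between 3.50 and 3.72 for *Slc5a7*.

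Of the 10 genes, 10 passed the test in WT PBS mice, 10 in *Vdr*-/- PBS mice, 9 in WT morphine mice and 10 in *Vdr*-/- morphine mice. With 1 mouse left out the count stayed at 10 in WT PBS mice and was 8 to 10, 7 to 8 and 8 to 9 in the other groups. The calls lost were those of *Chrna5*, *Chrna7* and *Chrnb4*: *Chrna5* in *Vdr*-/- morphine mice and *Chrna7* in WT morphine mice passed in 0 of 3 such fits, and *Chrna7* in both *Vdr*-/- groups and *Chrnb4* in WT morphine mice in 1 of 3. The shares of all genes that passed were 57.8%, 55.7%, 46% and 44.2%, so that a call alone says little in this comparison. Over the 8 receptor genes the median difference was -2.72 in WT PBS mice, -1.99 in *Vdr*-/- PBS mice, -1.45 in WT morphine mice and -1.80 in *Vdr*-/- morphine mice, where the median of all genes tested lay between -0.02 and -0.01.

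*Chrna6* and *Chrnb3*, the subunits of dopamine neuron terminals, differed most among the receptor genes. *Chrna6* held 1 to 11 reads per NAc library (0.0601 to 0.582 CPM) and 74 to 3284 reads per VTA library (5.15 to 133 CPM), and its difference ranged from -9.15 ± 0.52 in WT PBS to -6.06 ± 0.52 in WT morphine mice. These sizes depend on the pseudocount of 1, since the NAc values lie near it. *Chrnb3* reached 0.214 to 1.69 CPM in the NAc and 1.95 to 87.8 CPM in the VTA, with differences of -6.85 ± 0.64 in WT PBS, -4.64 ± 0.64 in *Vdr*-/- PBS, -3.09 ± 0.64 in WT morphine and -5.32 ± 0.64 in *Vdr*-/- morphine mice.

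*Chrna3* and *Chrna4* were also several-fold higher in the VTA in every group. *Chrna3* reached 0.318 to 1.55 CPM in the NAc and 4.57 to 10.99 CPM in the VTA, with differences from -3.65 ± 0.44 to -2.64 ± 0.44. *Chrna4* reached 33.1 to 66.0 CPM and 66.5 to 265 CPM, with differences from -2.38 ± 0.26 to -1.30 ± 0.26, and the lowest VTA library lay just above the highest NAc library.

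The region differences of *Chrna7* and *Chrnb2* were smaller. *Chrna7* held 7.83 CPM in the NAc library of WT PBS mouse 2, which had the strong length bias, and 13.8 to 17.4 CPM in the other 11, against 20.2 to 27.1 CPM in the VTA. Its difference was -0.88 ± 0.17 in WT PBS mice and -0.57 to -0.49 in the other groups. *Chrnb2* was 64.3 to 81.3 CPM in the NAc and 103 to 124 CPM in the VTA, with differences from -0.58 ± 0.06 to -0.39 ± 0.06.

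*Chrnb4*, the partner of *Chrna3* in ganglionic receptors, was low in both regions, at 0.106 to 0.787 CPM in the NAc and 0.914 to 2.79 CPM in the VTA, and its difference ranged from -2.36 ± 0.49 to -1.61 ± 0.49. *Chrna5* was the only member whose regions overlapped, at 0.180 to 1.75 CPM in the NAc and 0.418 to 10.1 CPM in the VTA. How often regions overlap over all genes was not counted, and *Chrna4*, *Chrnb3* and *Chrnb4* were separated only narrowly. Its difference was -3.06 ± 0.53 in WT PBS mice (adjusted p = 4.64e-05, limma) and -0.70 ± 0.53 in WT morphine mice (adjusted p = 0.296, limma). Without *Vdr*-/- PBS mouse 8, the difference of *Chrna5* in *Vdr*-/- PBS mice moved from -1.44 to -0.61 and no longer passed.

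**Figure D2:**
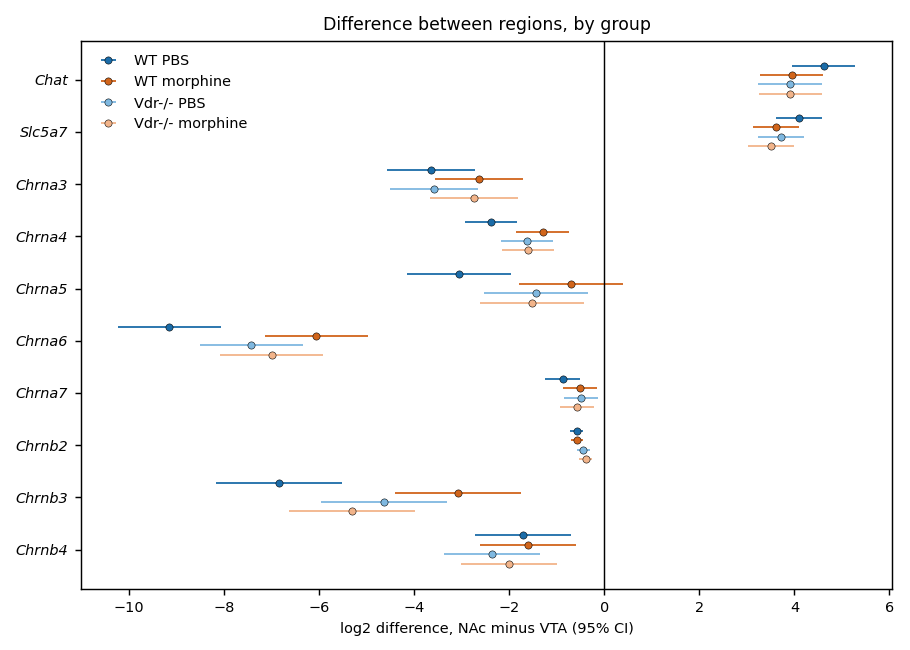
Difference NAc minus VTA on the log2 scale for each gene, with 95% confidence intervals from limma, in 4 groups of 3 mice per region. *Chat* and *Slc5a7* lie to the right of 0 and the receptor genes to the left, from about -0.39 for *Chrnb2* to -9.15 for *Chrna6*, and the interval of *Chrna5* in WT morphine mice crosses 0.

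Of 32 further genes of cholinergic signalling, 26 were tested between regions, of which 9 were higher and 10 lower in the NAc in WT PBS mice, 9 and 9 in *Vdr*-/- PBS, 9 and 8 in WT morphine and 9 and 7 in *Vdr*-/- morphine mice. The shares of all genes that passed were 57.8%, 55.7%, 46% and 44.2% in the same order. The muscarinic receptor *Chrm4* (4.60 in WT PBS mice) and *Lhx8* (6.65), a transcription factor of forebrain cholinergic neurons, had the lowest adjusted p. *Slc18a3*, which loads acetylcholine into vesicles, was higher in the NAc by 4.86. *Chrm5*, the muscarinic receptor of dopamine neurons, was lower in the NAc (-2.60), as were the esterases *Ache* (-1.18) and *Bche* (-1.36).

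The question of what loss of the vitamin D receptor did to these genes was addressed within each injection. In the NAc of PBS mice none of 8 members tested passed, where 0.069% of all genes did, and in the NAc of morphine mice none of 7 passed, where 0.192% did. These are limma counts. DESeq2 and edgeR on recovered reads called 0 members as well. An unadjusted p under 0.05 (limma) was found for 1 member with PBS and 0 with morphine. Over all genes it was found for 1424 of 15933 and 1209 of 15638. *Chrna6* and *Chrnb4*, and in morphine mice *Chrnb3*, were below the filter of a mean value of 10. None of the further genes passed in any genotype comparison. Of the 32 listed, 25 were tested in each NAc comparison, and in the VTA 23 with PBS, 21 with morphine and 23 in the average.

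*Chat* in the NAc held 20.9, 22.4 and 12.3 CPM in WT PBS mice and 13.7, 20.2 and 14.4 CPM in *Vdr*-/- PBS mice. The groups overlapped, and the difference *Vdr*-/- minus WT was -0.15 (95% CI -0.71 to 0.40). After morphine *Chat* held 25.6, 15.3 and 15.5 CPM in WT and 14.7, 16.7 and 20.9 CPM in *Vdr*-/- mice, with a difference of -0.08 (95% CI -0.47 to 0.32). *Slc5a7* differed by -0.24 (95% CI -0.73 to 0.24) with PBS and by -0.21 (95% CI -0.55 to 0.13) with morphine.

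Among the NAc receptor genes, *Chrnb3* came nearest to a genotype difference with PBS, with 11, 3 and 25 reads in WT and 32, 20 and 21 reads in *Vdr*-/- mice (0.666, 0.258 and 1.02 CPM against 1.69, 1.18 and 1.11 CPM). The groups did not overlap in CPM, but the difference of 1.14 ± 0.48 did not pass (adjusted p = 0.549, limma). Without WT PBS mouse 2, the library with the strong length bias, it was 0.62. *Chrna4* held 45.4, 37.7 and 53.6 CPM in WT and 66.0, 51.9 and 52.8 CPM in *Vdr*-/- PBS mice, a difference of 0.35 (95% CI -0.04 to 0.74), which was 0.19 without WT PBS mouse 2. *Chrnb2*, the beta subunit that joins it, differed by 0.16 (95% CI -0.04 to 0.35) with PBS and by 0.03 (95% CI -0.09 to 0.14) with morphine.

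Averaged over both injections, none of the 8 NAc members tested passed (0.374% of all genes did) and the median over members was 0.13. The widest intervals belonged to the subunits with few reads, such as *Chrna3* at -0.16 (95% CI -1.02 to 0.70), and the narrowest to *Chrnb2* at 0.09 (95% CI -0.01 to 0.19).

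In the VTA, none of the 10 members passed with PBS (0.39% of all genes did), none with morphine (0.0624%) and none in the average of both (0.794%), all by limma at an adjusted p of 0.05. DESeq2 and edgeR called 0 members in each. An unadjusted p under 0.05 (limma) was found for 4 members with PBS, 4 with morphine and 0 in the average. Over all genes it was found for 2338 of 16425, 1406 of 16029 and 2160 of 16240. The differences of *Chrna5*, *Chrna6* and *Chrnb3* were negative with PBS and positive with morphine.

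*Chrna6* held 133, 115 and 105 CPM in WT PBS mice, and 61.5, 99.1 and 24.9 CPM in *Vdr*-/- PBS mice. Every *Vdr*-/- library was below every WT library, and the difference was -1.16 ± 0.43 (adjusted p = 0.293, limma). The share of all genes without overlap between groups was not counted in any comparison. A lack of overlap is thus given as a description and not as a test. With morphine it held 8.62, 23.0 and 5.15 CPM in WT and 37.7, 25.5 and 59.5 CPM in *Vdr*-/- mice, with every *Vdr*-/- library higher and a difference of 1.92 ± 0.53 (adjusted p = 0.451, limma).

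*Chrnb3*, which assembles with alpha6, followed the same order. It held 87.8, 74.3 and 67.1 CPM in WT PBS, 42.5, 72.3 and 15.6 CPM in *Vdr*-/- PBS, 5.68, 14.3 and 1.95 CPM in WT morphine and 22.3, 16.1 and 34.1 CPM in *Vdr*-/- morphine mice. The groups overlapped with PBS (-1.08 ± 0.47) and not with morphine (2.07 ± 0.63).

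*Chrna5*, an accessory subunit that joins alpha4 and beta2, held 10.1, 8.50 and 9.07 CPM in WT PBS and 3.78, 7.41 and 1.69 CPM in *Vdr*-/- PBS mice, a difference of -1.35 ± 0.45 without overlap. With morphine it held 0.568, 1.89 and 0.418 CPM in WT and 2.90, 2.33 and 3.27 CPM in *Vdr*-/- mice, a difference of 1.77 ± 0.50, again without overlap. Leaving out 1 library changed these calls: without *Vdr*-/- PBS mouse 8, *Chrna5* (-1.86) and *Chrna4* (-0.61) passed with PBS, and without WT morphine mouse 1.1, *Chrna5* (2.39) and *Chrna6* (2.53) passed with morphine. Without *Vdr*-/- PBS mouse 9 the differences with PBS were smaller, at -0.81 for *Chrna5*, -0.60 for *Chrna6*, -0.47 for *Chrnb3*, -0.28 for *Chrna3* and -0.21 for *Chrna4*, and without WT morphine mouse 1.2 that of *Chrnb3* with morphine was 1.36.

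The summed dopamine neuron markers moved with these 3 genes. They were 3456, 2882 and 2797 CPM in WT PBS, 1662, 2685 and 688 CPM in *Vdr*-/- PBS, 378, 734 and 279 CPM in WT morphine and 1040, 764 and 1461 CPM in *Vdr*-/- morphine mice. All 10 markers were lower in *Vdr*-/- mice with PBS (median -1.04, 0 called) and all 10 higher with morphine (median 1.26, 0 called). In bulk tissue, fewer dopamine neurons in a punch and less RNA of these genes per neuron cannot be told apart.

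*Chrna3* and *Chrna4* differed in the same directions by less. *Chrna3* held 10.4, 10.6 and 10.99 CPM in WT PBS against 8.51, 9.26 and 5.27 CPM in *Vdr*-/- PBS mice (-0.53 ± 0.20, without overlap), and differed by 0.24 ± 0.18 with morphine. *Chrna4* differed by -0.42 ± 0.18 with PBS and 0.29 ± 0.31 with morphine. *Chrnb2* differed by 0.00 (95% CI -0.11 to 0.11) with PBS and -0.15 (95% CI -0.30 to 0.00) with morphine, *Chrna7* by -0.10 (95% CI -0.28 to 0.09) and 0.26 (95% CI 0.04 to 0.48), and *Chrnb4* by 0.41 (95% CI -0.12 to 0.94) and 0.38 (95% CI -0.45 to 1.22). VTA *Chat* differed by 0.54 (95% CI -0.45 to 1.54) with PBS and -0.05 (95% CI -0.65 to 0.56) with morphine.

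Morphine was then set against PBS within each genotype. In the NAc of WT mice, none of 7 members tested passed (0.813% of all genes did), by limma, DESeq2 or edgeR. An unadjusted p under 0.05 (limma) was found for 0 members and for 2616 of 15749 genes. In the NAc of *Vdr*-/- mice 2 of 8 passed, *Chrna4* and *Chrnb3*, both lower after morphine, where 19.1% of all genes passed.

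*Chrna4*, the main alpha subunit of high-affinity nicotine binding, held 66.0, 51.9 and 52.8 CPM in *Vdr*-/- PBS mice and 38.9, 44.4 and 40.4 CPM in *Vdr*-/- morphine mice. The groups did not overlap, and the value fell by 0.50 ± 0.09 on the log2 scale (adjusted p = 0.00392, limma). The WT libraries held 45.4, 37.7 and 53.6 CPM with PBS and 33.1, 39.0 and 56.8 CPM with morphine, which overlapped (-0.13, 95% CI -0.65 to 0.39). Without *Vdr*-/- PBS mouse 7, the highest library, the difference was -0.38 and still passed.

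Markers of other cells moved with the NAc comparison. Summed medium spiny neuron markers were 3808 to 4410 CPM in *Vdr*-/- PBS and 2487 to 2849 CPM in *Vdr*-/- morphine mice, and 10 of 10 were called lower, while in WT mice they were 4395 to 5044 and 2840 to 3614 CPM, with 3 of 10 called lower. Cortical excitatory markers summed to 632 to 1138 CPM and 600 to 703 CPM in the *Vdr*-/- groups, with 1 of 4 called lower. The 3 NAc libraries with the most *Chrna4* were also those with the most cortical markers, *Vdr*-/- PBS mouse 7 (1138 CPM), WT PBS mouse 3 (897 CPM) and WT morphine mouse 1.2 (757 CPM). The part of these markers in the *Chrna4* difference was not tested.

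NAc *Chrnb3* held 32, 20 and 21 reads in *Vdr*-/- PBS mice and 10, 15 and 2 reads in *Vdr*-/- morphine mice (1.69, 1.18 and 1.11 CPM against 0.662, 0.826 and 0.214 CPM). The groups did not overlap, with a difference of -1.32 ± 0.42 (adjusted p = 0.0496, limma). This call rested on few reads and was lost with DESeq2 (-1.18) and edgeR (-1.12), while *Chrna4* kept passing in both. With 1 library left out *Chrnb3* passed in 1 of 6 fits, at -1.65 to -0.81, and *Chrna4* in 6 of 6. Neither gene passed with all 12 NAc libraries in 1 fit or without the variance trend.

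The test of whether the morphine difference itself differed between genotypes passed for none of the 8 NAc members (0% of all genes did, with 916 of 15786 genes and 0 members at an unadjusted p under 0.05). The interaction was -0.36 (95% CI -0.95 to 0.22) for *Chrna4* and -1.29 (95% CI -3.01 to 0.42) for *Chrnb3*. *Chat* did not move with morphine beyond its spread in WT (0.00, 95% CI -0.62 to 0.62) or *Vdr*-/- mice (0.08, 95% CI -0.25 to 0.41), and *Slc5a7* was 0.28 (95% CI -0.26 to 0.82) and 0.31 (95% CI 0.03 to 0.60) above PBS.

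Of the further cholinergic genes tested in the NAc of *Vdr*-/- mice, 5 of 25 were higher and 3 lower after morphine, where 19.1% of all genes passed. The muscarinic receptors *Chrm2* (0.80) and *Chrm4* (-0.50) had the lowest adjusted p, and they moved in opposite directions. The transcription factor *Isl1* (0.67) and the nicotinic receptor-binding proteins *Ly6h* (0.24), *Lypd1* (0.35) and *Lynx1* (-0.25) came next. None of 26 such genes passed in WT mice (0.813% of all genes did).

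In the VTA of WT mice 4 of 10 members passed (3.65% of all genes did), and all 4 were lower after morphine. The deposited table holds 3 morphine against 2 PBS libraries, without WT PBS mouse 3. *Chrna6* held 133 and 115 CPM with PBS and 8.62, 23.0 and 5.15 CPM with morphine, a difference of -3.65 ± 0.55 (adjusted p = 0.0276, limma). *Chrnb3* differed by -3.92 ± 0.71 (adjusted p = 0.0399, limma) and *Chrna5* by -3.52 ± 0.58 (adjusted p = 0.0312, limma).

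*Chrna3* held 10.4 and 10.6 CPM with PBS and 6.20, 4.57 and 5.78 CPM with morphine, a difference of -0.96 ± 0.16 (adjusted p = 0.0298, limma). *Chrna4* held 265 and 245 CPM against 66.5, 163 and 109 CPM, and its difference of -1.30 ± 0.35 did not pass (adjusted p = 0.0876, limma), although the groups did not overlap. *Chrnb2* (0.08, 95% CI -0.09 to 0.25), *Chrna7* (-0.18, 95% CI -0.39 to 0.02) and *Chrnb4* (0.35, 95% CI -0.64 to 1.34) did not pass. *Chat* and *Slc5a7* lay 0.81 ± 0.30 and 0.82 ± 0.30 above PBS without passing (adjusted p = 0.171 and 0.165, limma).

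Of the dopamine neuron markers, 8 of 10 passed in the same comparison, all lower, and their median was -2.98. Values of other lists are given beside it. Oligodendrocyte markers summed to 11407 to 12425 CPM in the 3 WT PBS mice and 5782 to 9529 CPM after morphine (0 of 5 called), and microglia markers to 119 to 145 and 65.3 to 77.1 CPM (3 of 4 called lower). Thalamus markers reached 59.4 to 117 CPM with PBS and 53.5 to 466 CPM with morphine, highest in mouse 1.1 (0 of 3 called). The part of these 3 lists in the receptor differences was not tested. The mean level of the 10 dopamine neuron markers was used as a covariate over all 12 VTA libraries, an alternative chosen after seeing the data. This covariate was itself lower after morphine in WT mice, and it followed *Chrna6*, *Chrnb3* and *Chrna5* at r = 0.996, 0.992 and 0.987. Smaller differences were therefore built into the fit, which cannot decide between causes. With the covariate the difference was -0.20 for *Chrna6*, 0.016 for *Chrnb3*, -0.41 for *Chrna5* and -0.30 for *Chrna3*, and 0 members passed. The count also fell to 0 without WT morphine mouse 1.2, without WT PBS mouse 1 or without WT PBS mouse 2, and without the variance trend. With all 3 WT PBS mice and all 12 libraries in 1 fit it was 5, *Chrna4* included (-1.23).

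In the VTA of *Vdr*-/- mice, again 3 libraries against 2 (without PBS mouse 8), none of 10 members passed by limma, DESeq2 or edgeR (10% of all genes did by limma). An unadjusted p under 0.05 (limma) was found for 1 member and for 4879 of 16364 genes. *Chrna6* held 61.5 and 24.9 CPM with PBS and 37.7, 25.5 and 59.5 CPM with morphine, which overlapped (-0.03, 95% CI -1.04 to 0.99). *Chrnb3* (-0.16, 95% CI -1.19 to 0.86) and *Chrna5* (0.14, 95% CI -0.67 to 0.95) overlapped as well. *Slc5a7* was 0.61 (95% CI 0.10 to 1.12) higher without overlap but did not pass (adjusted p = 0.114, limma).

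The VTA interaction passed for none of the 10 members (0% of all genes did, with 1739 of 16240 at an unadjusted p under 0.05). The largest values belonged to *Chrnb3* (3.15 ± 0.91), *Chrna5* (3.13 ± 0.75) and *Chrna6* (3.08 ± 0.78), with adjusted p of 0.311, 0.283 and 0.283 (limma). An unadjusted p under 0.05 was found for 5 members, edgeR called 0 and DESeq2 called 1, *Chrna5* (2.69). The 10 dopamine neuron markers had a median interaction of 2.46, all positive and 0 called. With their level as a covariate the values were -0.16 for *Chrnb3*, 0.45 for *Chrna5* and 0.17 for *Chrna6*. Smaller values were again built into that fit.

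**Figure D3:**
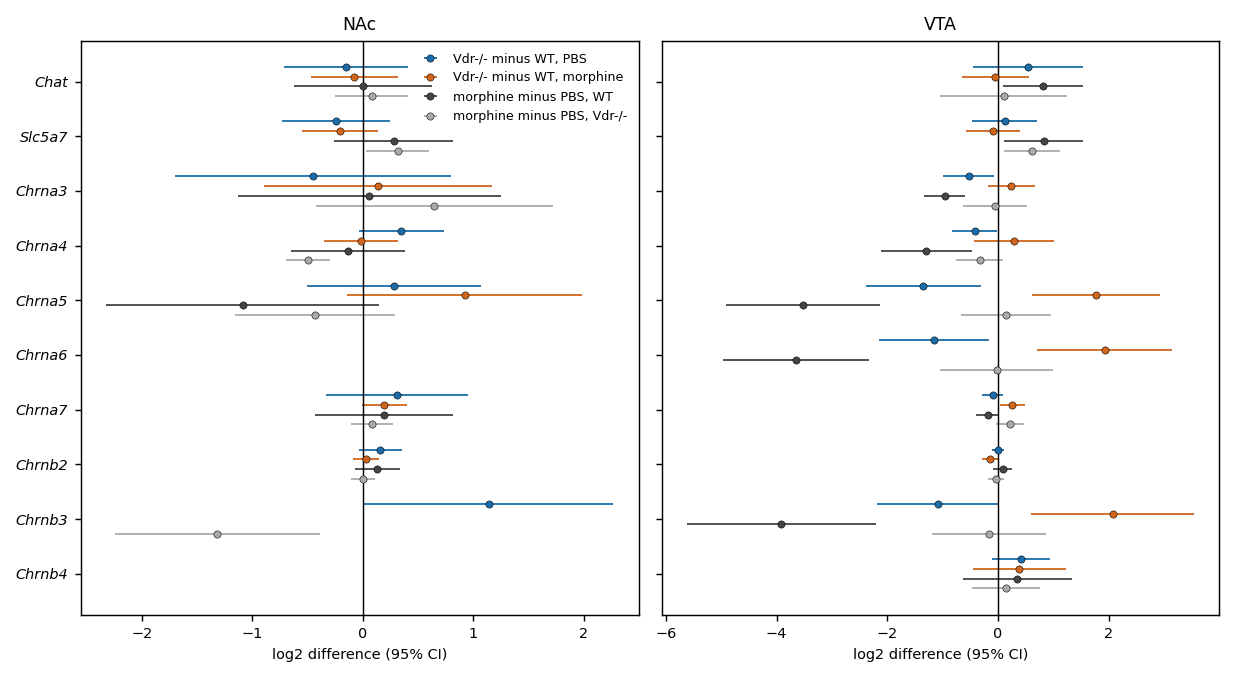
Differences between genotypes (*Vdr*-/- minus WT) and between injections (morphine minus PBS) on the log2 scale, with 95% confidence intervals from limma, in the NAc and VTA. A gene with no point was below the filter. In the VTA, *Chrna5*, *Chrna6* and *Chrnb3* lie left of 0 with PBS and right of 0 with morphine, while *Chrnb2* stays within -0.15 to 0.08.

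Among the further genes, 1 of 23 tested was higher in the VTA of WT mice after morphine (*Lypd6*, 1.45) and 3 were lower, the acetylcholinesterase anchors *Prima1* (-1.93) and *Colq* (-3.10) and the vesicular protein *Slc10a4* (-4.11). In *Vdr*-/- mice the choline transporter *Slc44a1* (-0.33) and the muscarinic receptor *Chrm3* (0.40) passed among 22. The shares of all genes that passed were 3.65% in WT and 10% in *Vdr*-/- mice.

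How closely each gene followed the dopamine neuron markers was measured over the 12 VTA libraries, with the mean log2(CPM + 1) of the 10 markers. Pearson's r was 0.996 for *Chrna6*, 0.992 for *Chrnb3* and 0.987 for *Chrna5*, and Spearman's rho was 0.993, 0.986 and 0.993 (permutation p = 1e-05 for each, the smallest that 100000 resamples can give, adjusted p = 3.33e-05 over 10 genes). The permutations shuffled the 12 libraries without regard to their groups, so the p-values of all correlations include the differences between groups. Without the 2 libraries farthest from the median, WT morphine mice 1.0 and 1.2, r was 0.997, 0.995 and 0.979. Within the 6 PBS libraries r was 0.999, 0.999 and 0.984, and within the 6 morphine libraries 1.00, 0.991 and 0.981.

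*Chrna4* and *Chrna3* followed the markers with more scatter. For *Chrna4* r was 0.882 and rho 0.867 (permutation p = 0.00022 and 0.0007, adjusted 0.00055 and 0.00148), with 0.874 without the farthest 2 libraries, 0.992 within PBS and 0.616 within morphine libraries. For *Chrna3* r was 0.847 and rho 0.860 (permutation p = 0.00096 and 0.00074, adjusted 0.00192 and 0.00148), with 0.973 without the farthest 2, 0.965 within PBS and 0.401 within morphine libraries.

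For the other members the relation was negative or did not pass. *Chat* ran against them (r = -0.626, rho = -0.762, permutation p = 0.0291 and 0.00564, adjusted 0.0415 and 0.0094), with r = -0.631 without the farthest 2 libraries, -0.732 within PBS and -0.452 within morphine libraries. *Slc5a7* did likewise (r = -0.704, rho = -0.664, permutation p = 0.0101 and 0.022, adjusted 0.0168 and 0.0315), at -0.557 without the farthest 2, -0.222 within PBS and -0.499 within morphine libraries. For *Chrna7*, *Chrnb2* and *Chrnb4* the adjusted permutation p lay between 0.223 and 0.32 for r and between 0.0606 and 0.139 for rho.

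Per 1000 CPM of summed markers, *Chrna6* held 37.7 to 40.0 CPM in WT PBS, 36.2 to 37.0 in *Vdr*-/- PBS and 33.4 to 40.8 in *Vdr*-/- morphine mice, and 18.5 to 31.3 in WT morphine mice. *Chrnb3* held 24.003 to 25.8, 22.7 to 26.9, 21.1 to 23.3 and, in WT morphine mice, 7.00 to 19.4. For both genes the WT morphine libraries lay below all others. The ratio is not a level per dopamine neuron, since the same markers summed to 62.5 to 106 CPM in the NAc. In the VTA *Aldh1a1* was never below 81.6 CPM and *Ret* never below 72.3 CPM, while *Slc6a3* fell to 14.1 CPM. The part of this in the lower ratios was not tested. The CPM of *Chrnb3* was 0.378 to 0.729 times that of *Chrna6*, with a median of 0.634.

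**Figure D4:**
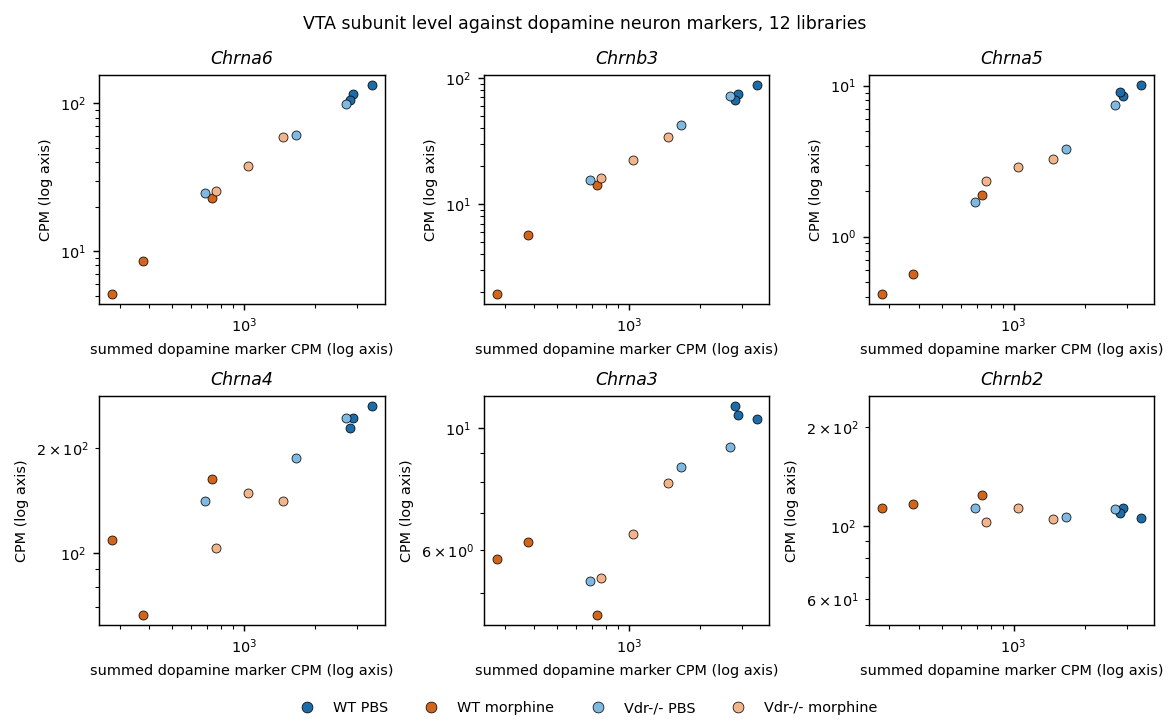
Level of 6 receptor genes in the VTA (CPM, log axis) against the summed level of 10 dopamine neuron markers (CPM, log axis), 1 point per library, coloured by genotype and injection. *Chrna6*, *Chrnb3* and *Chrna5* rise with the markers over all 12 libraries, *Chrna4* and *Chrna3* with more scatter, and *Chrnb2* stays between 103 and 124 CPM.

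In the NAc the genes were set against *Chat*. *Slc5a7* rose with it (r = 0.807, rho = 0.734, permutation p = 0.00065 and 0.00834, adjusted 0.00585 and 0.0375 over 9 genes), at 0.800 without the 2 libraries farthest from the median, WT morphine mouse 1.0 and WT PBS mouse 2, 0.836 within PBS and 0.909 within morphine libraries. For *Chrna3*, *Chrna4*, *Chrna5* and *Chrnb3* r was 0.675, -0.637, -0.609 and -0.656, each with an adjusted permutation p of 0.0591 (0.0188 to 0.0329 unadjusted). Spearman's rho was 0.783, -0.664, -0.685 and -0.678, with an adjusted permutation p of 0.034 for *Chrna3* and 0.0395 for the other 3 (0.00378 to 0.022 unadjusted), so that these relations passed by rank and not by r. Without the same 2 libraries, of which WT PBS mouse 2 had the strong length bias, r was nearer to 0, at 0.577, -0.381, -0.377 and -0.489. *Chrna3*, *Chrna5* and *Chrnb3* held only 5 to 26, 3 to 33 and 2 to 32 reads per NAc library. Within PBS libraries r was 0.817, -0.765, -0.588 and -0.688, and within morphine libraries 0.497, -0.569, -0.744 and -0.667. For *Chrna6*, *Chrna7*, *Chrnb2* and *Chrnb4* the adjusted permutation p lay between 0.154 and 0.621 for r and between 0.147 and 0.444 for rho.

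As a description, the genes whose log2(CPM + 1) was most like that of each member were listed over the 12 libraries of its higher region. Among the nearest to *Chat* in the NAc, of 13759 genes, were *Slc10a4* (r = 0.904) and *Atp1b3* (0.902), and nearest to *Slc5a7* were *Mmaa* (0.946), *Gm15328* (0.912) and *Rhoq* (0.904). In the VTA, among 13943 genes, *Chrna6* was nearest to *Slc10a4* (0.997), *Chrnb3* (0.996) and the midbrain transcription factor *En1* (0.996), and *Chrnb3* to *Slc10a4* (0.996), *Chrna6* (0.996) and *Gucy2c* (0.995). *Chrna5* was nearest to *Cnpy1* (0.996), *Aldh1a1* (0.992) and *Gata3* (0.991), and its neighbour *Chrna3* to *Ptpru* (0.967), the neurotensin receptor *Ntsr1* (0.960) and *Sncg* (0.954).

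*Chrna4* was nearest to *Stk39* (0.977), *Cplx1* (0.972) and *Acan* (0.967), and *Chrna7* to *Bcl11b* (0.922), *Rasl10a* (0.895) and *Cp* (0.891). *Chrnb2* was nearest to *Slc9a3r1* (0.881), *Pcdhga8* (0.872) and *Hivep1* (0.866), and *Chrnb4* to *Dxo* (0.881), *Vmac* (0.871) and *Ptges* (0.870). *En1* and *Aldh1a1* are among the 10 dopamine neuron markers, and the libraries behind each r share the differences in marker content given above.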

How the data were processed

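mRNA libraries of the 12 NAc and 12 VTA punches were analysed. The authors trimmed reads with Trimmomatic 0.36, mapped them with STAR 2.4.2a to the GENCODE GRCm38 annotation, counted per gene with STAR and divided by DESeq2 size factors. The labels also name CASAVA 1.8. The deposited signal is thus a normalized count, in 8 tables that each hold a pair of groups.

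All values in the 46 library columns were whole multiples of 1 read (100% within 0.01), and the recovered reads gave CPM and RPKM (GENCODE M21 exon unions, which hold 99.8% of the identifiers). Testing was on log2(value + 1) of genes averaging 10 or more, a scale that understates changes of low genes. It used limma 3.58.1 (eBayes with trend, two-sided, Benjamini-Hochberg over all genes tested, threshold 0.05). Genotype and morphine comparisons used the deposited table of the 2 groups. Region, averaged and interaction tests used recovered reads divided by DESeq2 size factors. Alternatives were DESeq2 1.42.0 and edgeR 4.0.16 (quasi-likelihood) on recovered reads, no filter or one of 50, a pseudocount of 5, no trend, quantile normalization, all 12 libraries, the replicate block, each library left out, and, added later, the dopamine marker covariate. Correlations used two-sided permutation tests that shuffled the libraries of a region without regard to their groups. Log2 fold changes were also tested on simulated data, only for genotype with PBS in the NAc and averaged genotype in the VTA. The outcome is not given here. The members and gene lists were chosen with earlier results of these data known. For every comparison the count of members that passed is given, out of those that reached the filter. Values of single members are given in the text for only some of them in most comparisons. Of the further lists, at most the 6 called genes of lowest adjusted p are named, and likeness is given for the 3 genes of highest r with a mean of at least 1 CPM, except 1 gene that is not reported here.

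Each mouse number is shared by an NAc and a VTA library, whose deviations from group means correlated at -0.0665 to 0.168. The digit after the point is shared by WT and *Vdr*-/- morphine mice, at -0.261 to -0.0256, which pairs no mice. Software was R 4.3.3 and Python 3.11.15 with scipy 1.17.1, pandas 2.3.3, matplotlib 3.10.9 and numpy 2.4.6.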

Additional observations from a re-analysis of the deposited data

How the results depend on the processing

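Of 2039 values of single genes under the alternatives, 1985 kept their side of the threshold, 44 lost and 9 gained a call and 1 reversed. Among the 1985 were 108 values that changed sign and were called in neither fit. The value that reversed was *Chrnb3* for morphine in WT VTA, at 0.016 with the dopamine marker covariate. That fit, in which smaller differences were built in, also left 0 members called there. Without the variance trend 0 members were called for morphine in WT VTA and in *Vdr*-/- NAc. For morphine in *Vdr*-/- NAc, 1 was called with DESeq2, with edgeR, without the filter and with a mean of at least 50, and 0 with all 12 libraries. DESeq2 called 1 member in the VTA interaction.

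Leaving out 1 library gave 0 to 5 members called for morphine in WT VTA, 1 to 2 in *Vdr*-/- NAc, and 0 to 2 for genotype in the VTA with PBS and with morphine. In the replicate block by mouse number, 10, 10, 9 and 10 members were called between regions in WT PBS, *Vdr*-/- PBS, WT morphine and *Vdr*-/- morphine mice, and by the digit after the point 0 were called for genotype with morphine in either region, so that the block changed no count of calls. Groups of 3 limit precision, and *Chrna6* and *Chrnb4*, with at most 13 reads per NAc library, were below the filter there and not tested for genotype or morphine. The cause of these changes was not tested.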
